A study of Macaca mulatta with 2 samples.

Results

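The annexins are a family of proteins that bind acidic phospholipids when calcium rises, and 10 of their genes were described here in the optic nerve of the rhesus macaque: *ANXA1*, *ANXA2*, *ANXA3*, *ANXA4*, *ANXA5*, *ANXA6*, *ANXA7*, *ANXA9*, *ANXA10* and *ANXA11*. They were taken by gene symbol from the 16684 genes of the deposited table, and all 10 were found there. The tissue came from wild-type, untreated animals and was sequenced as bulk total RNA in 2 libraries, named Rep1 and Rep2, that make up a single group. The study's methods describe the nerves as discarded postmortem tissue of 1 adult male, whereas the design text of the series speaks of 2 macaques, so the spread between the libraries may be that between nerves of the same animal. Values are transcripts per 1000000 (TPM), a share of the length-corrected reads of a library, so that levels of different genes can be compared. With 1 group there was no condition to compare and no p-value was computed.

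Each annexin holds a conserved core of repeats that folds around calcium and lies on the membrane, and a variable N-terminal part that binds partner proteins. The family is known for organising membrane domains, for membrane fusion and the sealing of wounded membranes, and for extracellular roles in inflammation and in the control of clotting and fibrinolysis. *ANXA1* connects the family to the lipoxin pathway that the study examined, because the receptor FPR2 is known to bind both annexin A1 and lipoxin A4.

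The calcium-binding loop of the core is shown first, since it is the feature that defines the family and the one in which the members differ. The loop was searched in frame as a glycine codon, any codon, a glycine codon and a threonine codon, on the coding strand, in the longest annotated coding sequence of every gene in the RefSeq annotation of Mmul_10. At least 1 match was present in 9 of the 10 annexins and in 14.1% of 20766 coding sequences, and at least 2 matches were present in 8 annexins and in 2.18% of all. *ANXA6*, which carries the core in duplicate, had 5 matches, *ANXA11* had 4, *ANXA3*, *ANXA4*, *ANXA5* and *ANXA7* had 3 each, *ANXA1* and *ANXA2* had 2 each, *ANXA10* had 1, and *ANXA9* had none. The stretch of 42 coding bases around the first match of *ANXA2* is printed below for the 3 annexins with the highest levels and for the 2 with the lowest, with the codons that align to the loop in capitals. The stretches lie at chr7:36811724-36815386 for *ANXA2* (minus strand), chr15:88570413-88570876 for *ANXA1* (plus strand), chr5:119509790-119511431 for *ANXA5* (minus strand), chr1:100143180-100143410 for *ANXA9* (minus strand) and chr5:165519223-165520805 for *ANXA10* (plus strand) in Mmul_10, and each range includes the intron inside the stretch. The sequences are those of RefSeq transcripts.
ANXA2: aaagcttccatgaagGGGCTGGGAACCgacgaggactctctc
ANXA1: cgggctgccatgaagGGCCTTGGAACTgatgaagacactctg
ANXA5: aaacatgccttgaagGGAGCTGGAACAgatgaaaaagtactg
ANXA9: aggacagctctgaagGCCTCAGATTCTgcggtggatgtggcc
ANXA10: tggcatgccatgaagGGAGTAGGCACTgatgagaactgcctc

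In all 10 genes an exon junction lies after the first 15 bases of this stretch, directly before the capitals. The capitals matched the searched codons in 9 genes and not in *ANXA9*, a member known for degenerate calcium sites. Identity was taken over the residues that aligned between 2 members, so parts left unaligned did not count. It ran from 32.8% (*ANXA7* and *ANXA9*) to 56.4% (*ANXA4* and *ANXA11*), and *ANXA1* and *ANXA2* shared 53.7% of their 337 aligned residues. Of all stretches of 50 bases in the annotated transcripts, none of *ANXA1*, *ANXA3*, *ANXA4*, *ANXA5*, *ANXA6*, *ANXA7*, *ANXA9* or *ANXA10* recurred elsewhere in the genome as an exact match. For *ANXA2*, 5.23% recurred, on chromosomes 5 and 9, where the copy on chromosome 5 is an annotated pseudogene. For *ANXA11*, 906 of 2451 stretches (37.0%) recurred on an unlocalised scaffold of chromosome 9 in a gene that the annotation calls annexin A11-like, so its level is uncertain, since the treatment of reads with several alignments was not given in the sources used here. *ANXA4* overlaps an uncharacterised noncoding gene on the opposite strand, and the use of strand was likewise not given.

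The libraries differed strongly in depth, which bears on every value below. The table does not hold read totals, but the ratios of its values placed the worth of a Rep1 read, in TPM, at 17.2 times that of a Rep2 read, a constant at which whole read numbers came out for 99.9% of the 10168 genes detected in both. In Rep1, 38.5% of genes were listed at 0, against 12.5% in Rep2. Markers of oligodendrocytes, astrocytes and fibroblasts of the meninges were present in both libraries, with summed levels of 45997.8 and 212246.3 TPM, 822 and 5035.5 TPM, and 1617.5 and 15124.1 TPM in Rep1 and Rep2. Single genes held most of these sums. *MBP* was at 43721.5 and 199595.4 TPM, which is 4.37% and 20% of all TPM in Rep1 and Rep2. *GFAP* was at 658 and 4331.2 TPM, and *DCN* at 995 and 10504.5 TPM. Markers of photoreceptors, which the optic nerve should lack, summed to 3497.2 TPM in Rep1 against 7.4 TPM in Rep2. The photoreceptor list was uneven too, since *GNAT1*, *PDE6G* and *GNAT2* held most of the Rep1 sum, at 2762.7, 514 and 200 TPM. The other photoreceptor markers were at 9.76 TPM or less in Rep1, and *SAG* was level, at 1.74 TPM in Rep1 against 1.82 TPM in Rep2. The smallest read numbers that fit a gene are given below as lower bounds. They count amplified reads and not molecules.

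Transcripts of 9 annexins were detected in both libraries, and 8 of them had a mean of at least 30 TPM. *ANXA2* was the highest in both, followed by *ANXA1* and *ANXA5*, then by *ANXA7*, *ANXA4*, *ANXA3*, *ANXA11* and *ANXA6*, with *ANXA9* far below and *ANXA10* at 0. The detected members spanned 134-fold in Rep1 and 554-fold in Rep2 from *ANXA9* to *ANXA2*.

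**Figure D1:**
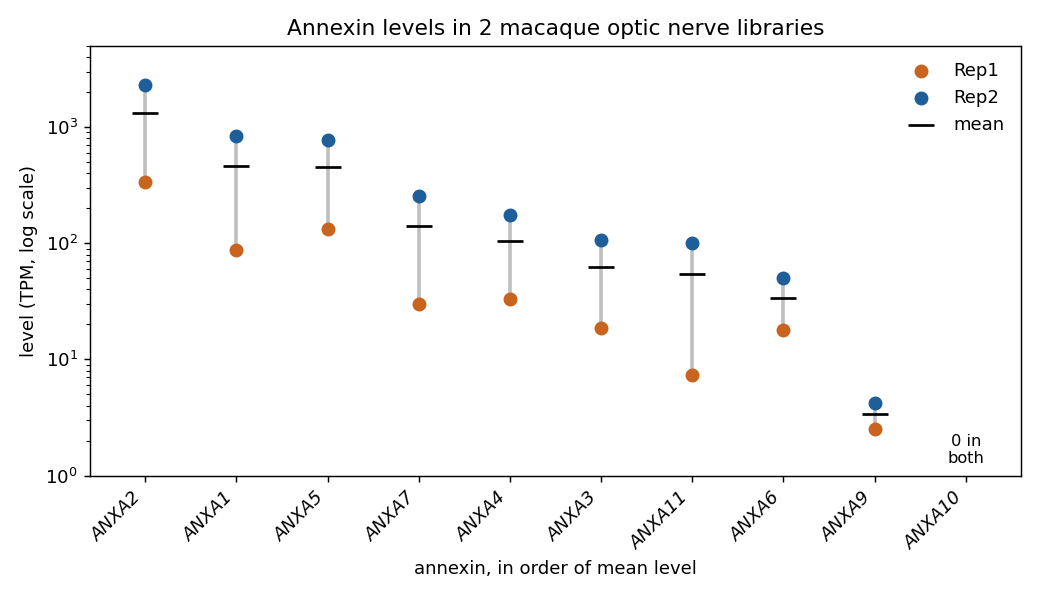
Level of each annexin in TPM on a log axis, with 1 point for Rep1, 1 point for Rep2 and a bar for their mean, and with members ordered by the mean. All 9 detected annexins were lower in Rep1 than in Rep2, *ANXA2* was at the top in both libraries, and *ANXA10* was listed at 0 in both.

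*ANXA2* encodes the annexin that forms a tetramer with S100A10 and serves at the cell surface as an assembly site for plasminogen and its activator. Its gene (identifier 706240) occupies bases 36802266 to 36859409 of chromosome 7 (Mmul_10, minus strand) and its longest annotated coding transcript has 13 exons. It stood at 339 TPM in Rep1 against 2317.4 TPM in Rep2, and rested on at least 121 and 14233 reads. The mean of 1327.9 ± 1399.3 TPM (SD, n = 2 libraries) ranked at percentile 99.5 among the 14693 genes detected in either library. It was high in Rep1 as well, at percentile 96.6 of that library.

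*ANXA1* encodes the glucocorticoid-induced annexin that acts through formyl peptide receptors to limit the recruitment of leukocytes. It lies on chromosome 15 from 88561712 to 88580580 on the plus strand (identifier 702946). It stood at 86.9 TPM in Rep1 against 841 TPM in Rep2, and rested on at least 75 and 12478 reads, with a mean of 464 ± 533 TPM (SD, n = 2) at percentile 98.0. *ANXA5* encodes the annexin that binds exposed phosphatidylserine and in labelled form is used to detect dying cells. It lies on chromosome 5 from 119495708 to 119525820 on the minus strand (identifier 706941). Its values were 133 TPM in Rep1 against 773 TPM in Rep2, from at least 28 and 2787 reads, with a mean of 453 ± 452 TPM (SD, n = 2) at percentile 97.9. The means of *ANXA1* and *ANXA5* were thus almost equal, and the libraries placed them in opposite order, with the level of *ANXA1* at 0.651 times that of *ANXA5* in Rep1 and 1.09 times in Rep2.

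A middle group of 5 members had means between 34.0 and 141 TPM. *ANXA7*, known as synexin for its part in membrane fusion, is encoded on chromosome 9 (64301144 to 64342829, plus strand) and stood at 30.2 TPM in Rep1 against 253 TPM in Rep2 (at least 32 and 4601 reads), with a mean of 141 ± 157 TPM (SD, n = 2). *ANXA4*, known from secretory epithelia and encoded on chromosome 13 (38967493 to 39047646, minus strand), stood at 33.3 TPM in Rep1 against 174 TPM in Rep2 (at least 5 and 449 reads), with a mean of 104 ± 99.6 TPM (SD, n = 2). These neighbours also changed places, with *ANXA4* above *ANXA7* in Rep1 and below it in Rep2. *ANXA3*, an annexin abundant in neutrophils and encoded on chromosome 5 (55142292 to 55203597, minus strand), was at 18.5 TPM in Rep1 against 106 TPM in Rep2 (at least 8 and 793 reads), with a mean of 62.5 ± 62.2 TPM (SD, n = 2), and it ranked at place 6 in each library. Neutrophil markers gave little signal beside it: of 6 examined, 4 were above 0 in Rep2, where they summed to 4.86 TPM, and all were listed at 0 in Rep1.

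*ANXA11*, which has a long N-terminal part, tethers RNA granules to lysosomes and is mutated in some cases of amyotrophic lateral sclerosis. It lies on chromosome 9 from 57961466 to 58008454 on the plus strand (identifier 707628), and stood at 7.33 TPM in Rep1 against 100 TPM in Rep2 (at least 16 and 3767 reads), with a mean of 53.9 ± 65.9 TPM (SD, n = 2). *ANXA6*, the largest annexin, lies on chromosome 6 from 148549159 to 148607786 on the minus strand (identifier 711612) and has 27 exons in its longest annotated coding transcript. It stood at 17.8 TPM in Rep1 against 50.3 TPM in Rep2 (at least 16 and 779 reads), with a mean of 34.0 ± 23.0 TPM (SD, n = 2). *ANXA6* was above *ANXA11* in Rep1 and below it in Rep2.

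*ANXA9*, the member without a matching loop, is encoded on chromosome 1 (100131105 to 100145778, minus strand). It stood at 2.54 TPM in Rep1 against 4.18 TPM in Rep2, from at least 3 and 85 reads, and its mean of 3.36 ± 1.16 TPM (SD, n = 2) was at percentile 33.5. Of the 200 genes closest to it in Rep2, 36.5% were listed at 0 in Rep1, so the value in Rep1 is near the limit of that library. *ANXA10*, known as a gastric annexin, lies on chromosome 5 from 165447705 to 165547458 on the plus strand (identifier 693439) and was listed at 0 in both libraries. Its transcript was not detected at these depths, which does not show that it is absent. Both members were low in both libraries and did not overlap in level with any other annexin.

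The order was set against the spread between the libraries. That spread, the SD of a single library on the log2(TPM + 1) scale, was estimated for each pair from how far Rep1 and Rep2 lay apart in the 200 genes closest to each of its members in mean log2 level. Of the 36 pairs of detected annexins, 33 stood in the same order in both libraries, and 22 had mean log2 levels more than 1 SD apart. The 3 pairs that changed places were *ANXA1* and *ANXA5*, *ANXA7* and *ANXA4*, and *ANXA11* and *ANXA6*, whose mean log2 levels differed by -0.136, 0.124 and -0.0589 SDs in the order named, a negative value meaning that the order of the mean log2 levels is the opposite of that of the mean TPM. Of the 8 pairs of neighbours in the order, 2 were more than 1 SD apart. These were *ANXA5* above *ANXA7*, by 1.86 on the log2 scale or 1.07 SDs, and *ANXA6* above *ANXA9*, by 2.86 or 1.60 SDs. *ANXA2* exceeded *ANXA1* by 1.71 on the log2 scale, which was 0.952 SDs, and it was first in both libraries, by 1.95 within Rep1 and 1.46 within Rep2. The SD used here also holds the average difference between the libraries among the 200 neighbouring genes. That difference changed with level, the median of those genes being 1.43 for *ANXA2* and -1.94 for *ANXA9*. An alternative chosen after seeing the data first subtracted the average difference of the 200 genes. It put 3 pairs of neighbours more than 1 SD apart. The added pair was *ANXA2* above *ANXA1*, at a value that rounds to 1 SD and so barely passes.

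Added together, the 10 annexins took 668 TPM in Rep1 against 4620.1 TPM in Rep2, which is 0.0668% and 0.462% of each library. The make-up of this total does not depend on how a library is scaled. *ANXA2* supplied 50.6% of it in Rep1 and 50.2% in Rep2. *ANXA5* supplied 20.0% and 16.7%, and *ANXA1* supplied 13.0% and 18.2%. The 3 together gave 83.6% of the annexin total in Rep1 and 85.1% in Rep2. The share of *ANXA6* was 2.66% in Rep1 and 1.09% in Rep2, that of *ANXA11* was 1.10% and 2.17%, and that of *ANXA9* was 0.379% and 0.0905%. Between these lay *ANXA7* with 4.52% and 5.47%, *ANXA4* with 4.99% and 3.77%, and *ANXA3* with 2.76% and 2.30%.

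**Figure D2:**
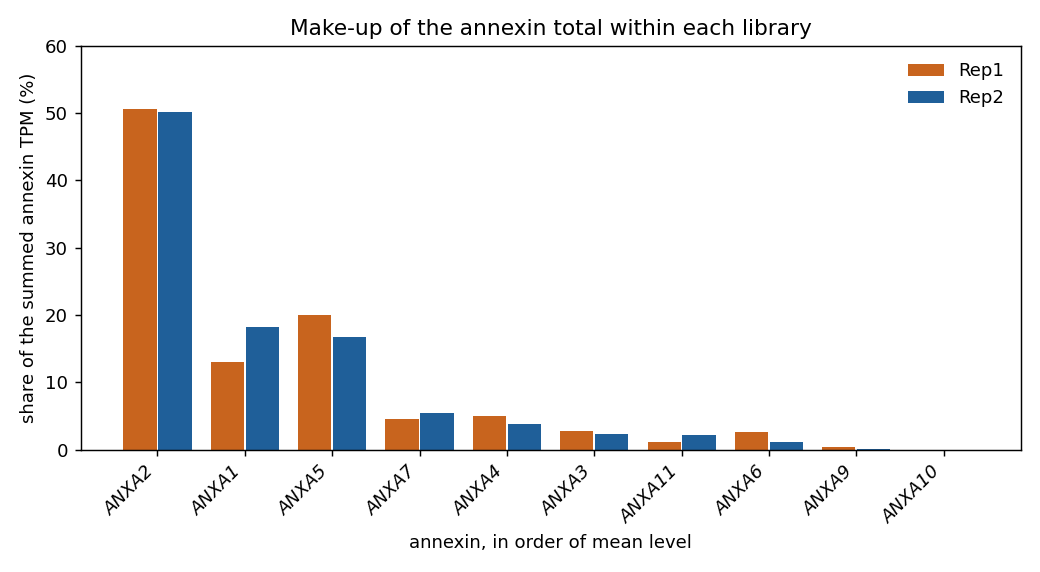
Share of the summed annexin TPM that each member supplied within each library, in percent, with bars for Rep1 and Rep2. *ANXA2* supplied 50.6% and 50.2%, and the 3 highest members together 83.6% and 85.1%.

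Annexin transcripts were lower in Rep1 than in Rep2 as a group. On the log2(TPM + 1) scale, where differences of low genes come out too small, all 9 detected members were lower in Rep1, from -3.61 for *ANXA11* to -0.55 for *ANXA9*, with a median of -2.53 against -1.07 over the 14693 genes detected in either library. At least a 2-fold deficit in Rep1 was seen for 8 of the 9 members, *ANXA9* being the exception, and for 51.3% of those genes. None of the 9 was at least 2-fold higher in Rep1, against 14.8% of genes. The 8 members whose mean reached 30 TPM were all at least 2-fold lower, against 47.3% of the 4196 genes at that level. The annexins were not drawn at random and their values within a library are not independent, so these counts describe the 2 libraries and are not a test.

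Part of this difference was common to the libraries as wholes. Scaling the libraries by their median of ratios took out a general offset, -1.19 in log2 units for Rep1 relative to Rep2. After it, the median of the annexins was -1.34 and that of all genes -0.38, 7 of 9 members were still at least 2-fold lower in Rep1, against 33.8% of genes, *ANXA6* came to -0.30, and *ANXA9* changed sign to 0.36. The largest deficits after scaling were -2.48 for *ANXA11*, -2.08 for *ANXA1* and -1.85 for *ANXA7*. Unscaled, the ratio of Rep2 to Rep1 was 13.7 for *ANXA11*, 9.68 for *ANXA1*, 8.37 for *ANXA7*, 6.85 for *ANXA2*, 5.79 for *ANXA5*, 5.77 for *ANXA3*, 5.23 for *ANXA4*, 2.83 for *ANXA6* and 1.65 for *ANXA9*. Neighbours of the most abundant members in mean log2 level moved the other way, since the 200 closest genes had a median difference of 1.43 for *ANXA2*, 0.71 for *ANXA1* and 0.97 for *ANXA5*, that is, were higher in Rep1, whereas for *ANXA11* and *ANXA6* they were at -1.30 and -1.19.

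**Figure D3:**
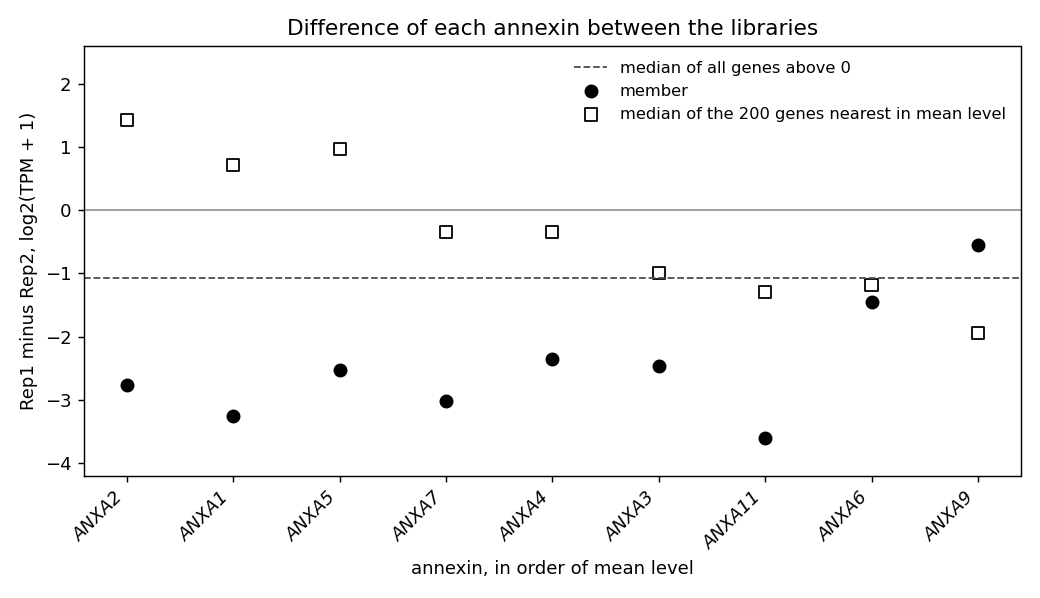
Difference between the libraries (Rep1 minus Rep2, log2(TPM + 1)) for each detected annexin as a filled point, with the median of its 200 neighbours in mean level as an open square and the median of all detected genes as a dashed line at -1.07. The points run from -3.61 for *ANXA11* to -0.55 for *ANXA9*, and only *ANXA9* lies above the dashed line.

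Markers of the cells of the nerve were mostly lower in Rep1, as were 75.9% of all genes detected in either library. The median difference was -2.93 for 5 fibroblast markers, of which 5 were lower in Rep1, -2.40 for 7 oligodendrocyte markers, of which 7 were lower, -2.17 for 6 astrocyte markers, of which 5 were lower, -2.26 for 6 markers of microglia and macrophages, of which 5 were lower, and -1.73 for 7 markers of endothelial cells and pericytes, of which 7 were lower. The microglial list was uneven: *CSF1R*, the receptor that microglia need to survive, was at 61.3 TPM in Rep1 against 62.2 TPM in Rep2. After median-of-ratios scaling 3 of the 6 were at least 2-fold lower and 2 at least 2-fold higher in Rep1, against 33.8% and 23.7% of genes. The endothelial and pericyte median came to -0.55 after that scaling, against -0.38 for all genes. Photoreceptor markers moved the other way, with a median of 2.69 and 7 of 8 higher in Rep1, and neuronal markers had a median of 1.12 with 3 of 5 higher in Rep1. The neuronal list was uneven, so its median, that of *STMN2*, does not describe the rest. *SNAP25* and *SYT1* were at 1121.5 and 769 TPM in Rep1 against 4.99 and 11.8 TPM in Rep2. *RBFOX3* and *NEFL* were nearly level, at -0.12 and -0.01. The 4 markers of Muller cells, the glia of the retina, were split, so their median of -2.22 does not describe them all. *GLUL*, *VIM* and *DKK3* were lower in Rep1, at -2.05, -2.39 and -2.41. *RLBP1* was higher there, at 76.7 TPM in Rep1 against 6.12 TPM in Rep2. The part of these cell types in the annexin values was not tested, and in bulk RNA fewer cells of a type cannot be told apart from less RNA per cell. Epithelial markers, looked at because several annexins are known from epithelia, were all listed at 0 in Rep1, and 4 of 5 were above 0 in Rep2, where they summed to 19.6 TPM.

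**Figure D4:**
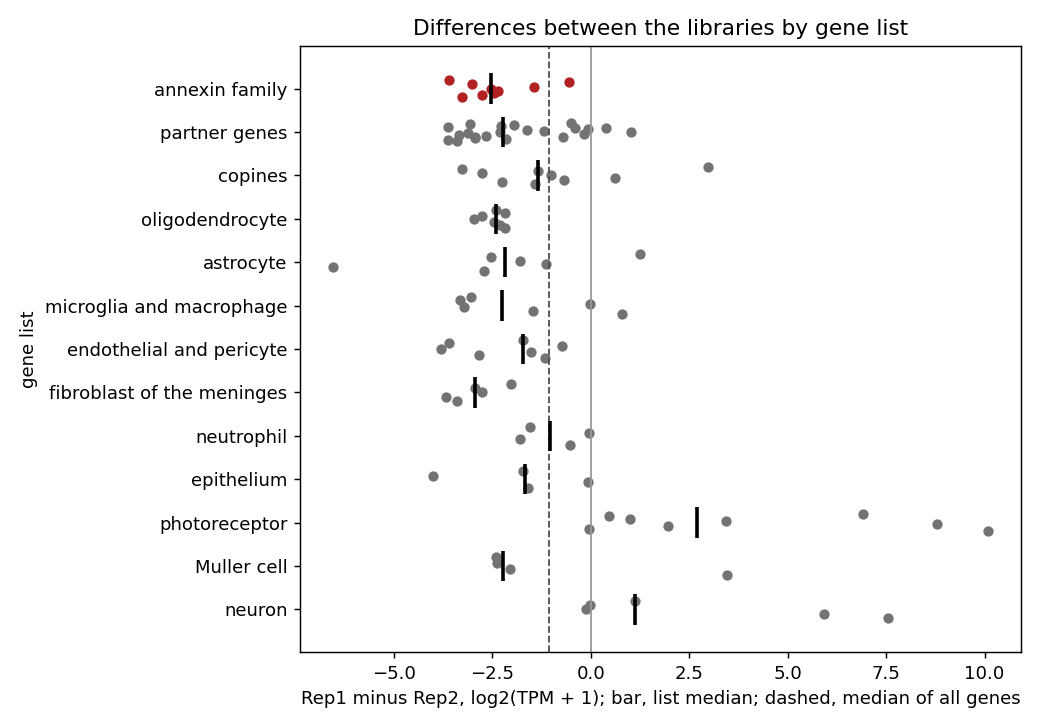
Difference between the libraries (Rep1 minus Rep2, log2(TPM + 1)) of each detected gene by list, with the list median as a bar and the median of all genes as a dashed line at -1.07. The annexins (red) have a median of -2.53, beside -2.22 for their partner genes, -1.34 for the copines and 2.69 for photoreceptor markers.

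Partner proteins and receptors of the annexins were taken as a list of 23 genes, of which 22 were detected in either library. S100 proteins are small dimers, several of which grip the N-terminal part of an annexin. *S100A10*, the partner of annexin A2, stood at 75.8 TPM in Rep1 against 807 TPM in Rep2, and the level of *ANXA2* was 4.46 and 2.87 times as high. *S100A11*, the partner of annexin A1, stood at 17.2 and 225 TPM, and the level of *ANXA1* was 5.06 and 3.74 times as high. Each of these annexins was thus above its S100 partner in both libraries. *S100A4*, another S100 protein that binds annexin A2, was at 13.9 and 114 TPM. *S100A6*, a partner of annexin A11, stood at 69.8 TPM in Rep1 against 314 TPM in Rep2, and *ANXA11* was the lower of the 2, at 0.105 and 0.320 times its level.

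*AHNAK*, a giant scaffold protein that binds the complex of annexin A2 with S100A10, stood at 135 TPM in Rep1 against 1035.8 TPM in Rep2. *PLAT*, the tissue plasminogen activator that this complex can bind, was at 10.7 and 56.8 TPM, and *PLG*, which encodes plasminogen, was listed at 0 in both. Penta-EF-hand proteins bind the N-terminal parts of annexins A7 and A11. Of these, *SRI* (sorcin) was at 22.4 TPM in Rep1 against 202 TPM in Rep2, so that *ANXA7* was 1.35 and 1.25 times as high, and *PDCD6* (ALG-2) was at 8.17 and 92.4 TPM, so that *ANXA11* was 0.898 and 1.09 times as high. The level ratios of *ANXA7* to *SRI* and of *ANXA11* to *PDCD6* were therefore close in the libraries, whereas that of *ANXA11* to *S100A6* was not, at 0.105 and 0.320. All 4 genes of the close ratios were at least 2-fold lower in Rep1, as were 51.3% of genes detected in either library. In Rep1 they rested on at least 32 reads for *ANXA7*, 19 for *SRI*, 16 for *ANXA11* and 9 for *PDCD6*.

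The receptors of annexin A1 were near the lower end of the table. *FPR2* was at 2.09 TPM, *FPR1* at 1.29 TPM and *FPR3* at 0.0475 TPM in Rep2, and all 3 were listed at 0 in Rep1. The ligand gene *ANXA1* was at 841 TPM in the same library. *PLA2G4A*, which encodes the cytosolic phospholipase A2 that annexin A1 is known to inhibit, was at 0.840 TPM in Rep1 against 0.416 TPM in Rep2, from at least 2 and 17 reads. Of the membrane-repair genes, *MYOF* was at 1.95 and 17.8 TPM, whereas *DYSF* and *TRIM72* were listed at 0 in Rep1 and stood at 0.630 and 0.320 TPM in Rep2.

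As a list, the partner genes had a median difference of -2.22 between the libraries, which became -1.14 once the libraries were scaled by the median of ratios. Of the 22 detected, 6 were listed at 0 in Rep1, as were 4434 of the 14693 genes detected in either library. In Rep1, 15 of the 22 were at least 2-fold lower and 1 was at least 2-fold higher, against 51.3% and 14.8% of all genes. After the scaling these counts were 12 and 2, against 33.8% and 23.7% of genes. The gene at least 2-fold higher in Rep1 was *TSG101*, a component of the machinery that sorts cargo into multivesicular bodies, at 239 TPM in Rep1 against 118 TPM in Rep2. *PDCD6IP* (ALIX), which works in the same machinery, was at 125 and 141 TPM. The calpains *CAPN1* and *CAPN2*, calcium-dependent proteases, were at 8.39 and 42.8 TPM in Rep1 against 116 and 213 TPM in Rep2. *LAMP1*, a membrane protein of lysosomes, was at 53.9 and 212 TPM. *THBD* (thrombomodulin), an anticoagulant receptor for thrombin, was at 4.33 and 6.59 TPM, and *F2RL1*, a receptor switched on by proteases, was listed at 0 in Rep1 and at 7.41 TPM in Rep2.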

How the data were processed

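Bulk RNA-seq of untreated macaque optic nerve was analysed, 1 group with 2 libraries, whose columns (Rep1 and Rep2) could not be paired with the individual sample titles. Per the study's methods and the submitters' processing notes, cDNA was amplified with an ultra-low-input SMARTer kit, reads were checked with FastQC 0.11.9, trimmed with Trim Galore 0.6.6, aligned to Mmul_10 with STAR 2.7.1a and counted with featureCounts 1.5.3. The authors then normalized the counts to TPM, and these TPM values, which sum to 1000000 in each library, are what they deposited. The table gives no read totals and the read numbers derived from it are lower bounds, so no counting interval or detection limit is given.

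Means, SDs, shares and differences on the log2(TPM + 1) scale were computed with pandas 2.3.3, numpy 2.4.6 and scipy 1.17.1 under Python 3.11.15, and plotted with matplotlib 3.10.9. Read ratios were accepted as whole at a relative tolerance of 1e-12. Coordinates, coding sequences and exact matches of 50 bases came from RefSeq's Mmul_10, and encoded proteins were aligned with Biopython 1.88. The worth of a read, the smallest read numbers, the median-of-ratios scaling and the SD of a single library were tested on simulated data. For the SD, the simulated libraries had the same mean levels and a constant spread, unlike the libraries here. The sequence searches and alignments were not part of these tests.

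The text names all annexins, the partner genes and the copines, and single cell type markers only beside a result. The members, lists and alternatives were chosen with earlier results of these data known.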

Additional observations from a re-analysis of the deposited data

How the results depend on the processing

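No paired analysis was possible because only 1 group was sequenced. The alternatives were median-of-ratios scaling, removal of the 10 genes with the highest means, a pseudocount of 0.1, a geometric mean, a minimum mean of 1 TPM, 500 neighbours in level and each library alone, and those for the copines, and an SD computed after subtracting the neighbours' average difference (3 pairs of neighbouring annexins over 1 SD apart), were added after seeing the data. Across 18 results, 55 values stayed within the spread set for them and 1 moved. Under median-of-ratios scaling, 1 pair of neighbouring annexins in place of 2 was more than 1 SD apart. For the levels and the total, that spread was the SD of the 2 libraries. It was about as large as the mean or larger for most, as for *ANXA2* at 1327.9 ± 1399.3 TPM, so staying within it says little. The median difference of the annexins also counted as staying, although it went from -2.53 to -1.34 under median-of-ratios scaling. With each library alone, the annexin total ran from 668 to 4620.1 TPM, and each of 2 libraries lies equally far from their mean, so this says nothing about stability. The depth of Rep1 limits *ANXA9*, *ANXA10* and the formyl peptide receptors.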

Other observations

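The copines are another family that binds phospholipids in a calcium-dependent way, through C2 domains in place of annexin repeats. All 9 were detected in either library, and together they took 124 TPM in Rep1 against 386 TPM in Rep2, against 668 and 4620.1 TPM for the 10 annexins. *CPNE6*, known as a neuronal copine, had the highest mean, with 20.6 TPM in Rep1 against 146 TPM in Rep2. *CPNE3* followed with 52.8 and 85.5 TPM, and *CPNE1* with 25.1 and 68.7 TPM. *CPNE9* was the only 1 of the 9 at least 2-fold higher in Rep1, against 14.8% of genes. It had 12.7 TPM there and 0.737 TPM in Rep2, and its ratio fits as few as 1 read in each library. The median difference of the copines was -1.34, against -1.07 for all genes, and 6 of 9 were at least 2-fold lower in Rep1, against 51.3% of genes. Under the alternatives added after seeing the data, that median was -0.45 after scaling by the median of ratios, against -0.38 for all genes. After that scaling, 3 of 9 were at least 2-fold lower in Rep1 and 2 at least 2-fold higher, against 33.8% and 23.7% of genes. Of the other copines, *CPNE2* was at 6.50 TPM in Rep1 against 34.9 TPM in Rep2, *CPNE8* at 3.58 and 43.1, *CPNE7* at 1.71 and 5.89, *CPNE4* at 1.51 and 0.646, and *CPNE5* was listed at 0 in Rep1 and at 1.01 TPM in Rep2.

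*ANXA13*, an annexin that is not among the 10 genes described, was listed at 0 in Rep1 and at 0.621 TPM in Rep2.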
